A study of Homo sapiens with 2 samples.

Results

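Histone protein genes were examined in HCT15, a human line established from a colorectal adenocarcinoma. The edited cells had received Cas9 aimed at ARID3B, which encodes an ARID-family DNA-binding protein, and are labelled ARID3B knockout (1 array). The other cells are labelled control (1 array). Members were the genes whose single annotated symbol names a linker histone, a core histone of the replication clusters, H2AX, H2AZ, H2AJ, an H3 variant or macroH2A. This gave 58 of 19775 genes, with the probe set of highest mean standing for each gene. Of these, 54 encode proteins and 4 are pseudogenes or a non-coding RNA with a matching symbol. The labels describe growth in RPMI with fetal bovine serum for both cultures, and the control carries no named agent. No clone or pool is named for the edited cells, and the guide's position was not given in the sources used here. Since each group has 1 array, no difference has a replicate check, none was tested, and every value below describes these 2 arrays.

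Nucleosomes hold the core histones H2A, H2B, H3 and H4, and linker histone H1 binds the DNA between them. The genes of the replication clusters are transcribed mainly in S phase, and most of their mRNAs end in a conserved stem-loop in place of a poly-A tail. Some of them, among them H2BC12, H2BC5, H2BC21 and H2AC6, are also known to give polyadenylated transcripts. Variant histones such as H2AZ1, H3-3A and the macroH2As come from separate genes outside the clusters, have polyadenylated mRNAs and are made throughout the cell cycle. Standard 3-prime expression arrays label RNA from its poly-A tail, so a cluster gene's value here need not follow its stem-loop mRNA, and the share of polyadenylated message was not measured.

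In the values as deposited, no histone gene differed by 2-fold between the knockout-labelled and the control array in the probe set that stands for it. Of the 54 coding members, 28 reached the floor of 4.59, the median log2 value of all non-control probe sets, on at least 1 array and were compared. None was 2-fold higher (1.05% of all 12841 genes compared were) and none was 2-fold lower (3.79% of all genes were). Shares this small leave few genes in a set of 28, so that finding none does not set the members apart. At 1.5-fold, 1 member was higher (5.83% of all genes) and 1 was lower (10.5% of all genes). The differences, on the log2 scale as knockout-labelled minus control, ran from -0.61 for H2BC12L to 0.71 for H1-10. Genes of similar expression had a spread of differences (scaled median absolute deviation) of 0.255 to 0.437, and the largest member difference was 1.93 such spreads. No member reached 2 spreads, as 10.7% of all genes did.

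The direction of the edit rests on the labels alone. ARID3B stood at 6.09 in knockout-labelled cells and at 5.12 in control cells, a difference of 0.97, which is higher and not lower, and the array is therefore called knockout-labelled throughout. It has 1 single-symbol probe set, so that no other checks this value. Swapped labels and an edit that leaves the transcript cannot be told apart on 2 arrays, and a swap would turn the sign of every difference given here. Of 10 markers of colon epithelium 8 reached the floor, with EPCAM at 12.23 in knockout-labelled cells and 12.19 in control cells, while KRT20 and LGALS4 did not. Of these 8 markers 2 were lower and 6 higher. The intestinal transcription factor gene CDX2 was at 6.91 in knockout-labelled cells and 6.27 in control cells (0.64), and CDH1, encoding E-cadherin, at 10.66 in knockout-labelled cells and 11.11 in control cells (-0.45), each in the same direction in both its probe sets. VIL1 was at 5.45 in knockout-labelled cells and 5.66 in control cells (-0.21). It was lower in all 4 of its probe sets, of which only the brightest reached the floor. Of 10 markers of other cell types 4 reached the floor, all of them higher in knockout-labelled cells. COL1A1, a fibroblast collagen gene, was at 7.12 in knockout-labelled cells and 6.87 in control cells, in a probe set that can match other genes. Of its 5 probe sets 3 were lower and 2 higher. The next brightest was at 3.17, under the floor, in knockout-labelled cells and at 5.64 in control cells (-2.47). CD14 was at 6.54 in knockout-labelled cells and 6.51 in control cells, PECAM1 at 5.73 in knockout-labelled cells and 5.55 in control cells, and CD3E at 4.87 in knockout-labelled cells and 4.71 in control cells. Their part in the histone values was not tested. PTPRC, the pan-leukocyte marker, was under the floor and stood at 2.72 in knockout-labelled cells and at 2.48 in control cells. The poly-A spike-ins, transcripts normally added before labelling, have 24 probe sets, all of which were lower on the knockout-labelled array, by 1.19 on average. Scaling on them moved the median difference of all genes to 1.22, against 0.04 as deposited, and put 17 of the 28 compared histone genes at least 2-fold higher. The differences given here, taken as deposited, can therefore be read only beside the median of all genes.

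**Figure D1:**
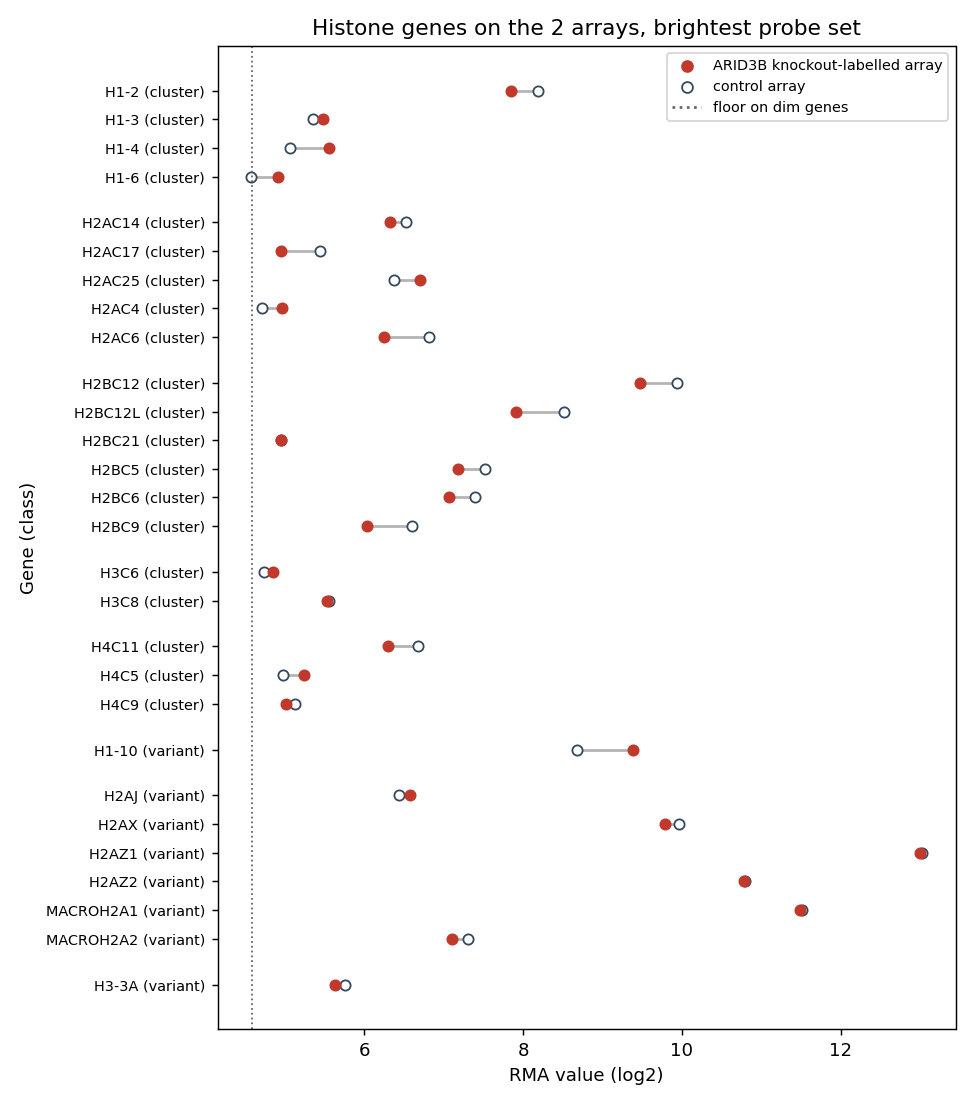
RMA log2 values of the 28 compared histone genes on the knockout-labelled array (filled) and the control array (open), with the floor of 4.59 as a dotted line. The arrays lie close together for most genes, with H1-10 the widest gap upward and H2BC12L the widest gap downward.

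The promoters of H2B genes are shown because H2B was the cluster class with the lowest median difference, and those of H1-2, H1-4 and H1-10 because the H1 genes differed in opposite directions. Each run is the 150 bases before the RefSeq transcription start on assembly GRCh38.p14, read on the gene's strand. Capitals mark exact matches, on either strand, to TATAAA, the TATA box letters, to CCAAT, or to ATTTGCAT, the octamer bound by POU2F1.
H2BC12 (chr6:27146859-27147008, minus strand): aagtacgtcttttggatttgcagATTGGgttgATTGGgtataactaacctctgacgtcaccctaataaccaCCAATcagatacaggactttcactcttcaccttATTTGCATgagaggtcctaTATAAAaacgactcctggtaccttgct
H2BC5 (chr6:26157971-26158120, plus strand): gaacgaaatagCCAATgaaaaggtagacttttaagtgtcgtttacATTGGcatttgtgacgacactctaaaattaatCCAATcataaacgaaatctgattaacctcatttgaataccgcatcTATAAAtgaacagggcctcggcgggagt
H2BC6 (chr6:26183611-26183760, plus strand): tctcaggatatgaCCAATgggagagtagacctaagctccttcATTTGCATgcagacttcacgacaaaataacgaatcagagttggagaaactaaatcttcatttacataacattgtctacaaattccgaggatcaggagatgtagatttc
H2BC9 (chr6:26251464-26251613, plus strand): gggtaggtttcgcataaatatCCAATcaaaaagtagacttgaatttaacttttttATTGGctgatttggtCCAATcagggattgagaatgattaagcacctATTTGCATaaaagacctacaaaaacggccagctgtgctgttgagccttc
H2BC21 (chr1:149886683-149886832, minus strand): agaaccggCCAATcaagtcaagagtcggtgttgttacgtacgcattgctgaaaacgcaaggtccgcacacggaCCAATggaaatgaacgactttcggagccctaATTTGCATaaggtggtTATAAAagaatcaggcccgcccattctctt
H1-2 (chr6:26056471-26056620, minus strand): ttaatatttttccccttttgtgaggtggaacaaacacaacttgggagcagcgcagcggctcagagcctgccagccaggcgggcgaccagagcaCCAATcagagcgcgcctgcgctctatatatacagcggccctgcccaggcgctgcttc
H1-4 (chr6:26156179-26156328, plus strand): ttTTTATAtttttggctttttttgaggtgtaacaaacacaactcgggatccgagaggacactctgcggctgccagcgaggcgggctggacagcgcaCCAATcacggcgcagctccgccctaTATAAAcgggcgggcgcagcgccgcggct
H1-10 (chr3:129316287-129316436, minus strand): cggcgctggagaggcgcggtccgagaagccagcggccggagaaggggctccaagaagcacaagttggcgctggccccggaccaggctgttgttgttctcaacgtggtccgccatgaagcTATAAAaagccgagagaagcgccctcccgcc

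Among the H2B promoters the octamer began 46 bases before the start in H2BC12 and H2BC21, 49 in H2BC9 and 108 in H2BC6, and H2BC5 had none in its window. The last TATAAA began 27 bases before the start in H2BC12, 28 in H2BC5 and 30 in H2BC21. H1-2 and H1-4 each had CCAAT, at 57 and 54 bases before the start, and only H1-4 of these 2 also had TATAAA, 29 bases before it. H1-10 had TATAAA, 31 bases before the start, and neither CCAAT nor the octamer in the 250 bases searched.

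The replication-cluster genes differed in both directions. Genes were put in this class by symbol, so that it also holds H2BC12L, which lies on chromosome 21. Of the 43 genes in the class 20 were compared. Of these, 12 were lower and 7 higher on the knockout-labelled array, with H2BC21 at the identical value on both. Of all genes compared, 45.1% were lower, 52.9% were higher and 1.97% had identical values. The cluster median was -0.16, against 0.04 for all genes, but it was 0.12 over the 11 genes left when probe sets with a suffix that marks cross-matching were dropped. The middle of the cluster values, from the 25th to the 75th percentile, ran from -0.40 to 0.15, and that of all genes from -0.24 to 0.25.

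H2B genes had the lowest median, -0.40 over 6 compared genes, of which 5 were lower and none higher. H2BC12, which encodes the H2B type 1-K protein, was at 9.47 in knockout-labelled cells and 9.93 in control cells, a difference of -0.46. H2BC12L, an H2B-like gene on chromosome 21, was at 7.90 in knockout-labelled cells and 8.52 in control cells, a difference of -0.61 or 1.53-fold. It was the lowest of all members compared, and its probe set is marked as cross-matching.

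H2BC9 was at 6.03 in knockout-labelled cells and 6.60 in control cells (-0.57). H2BC5 was at 7.18 in knockout-labelled cells and 7.52 in control cells (-0.34), and its other probe set at 6.66 in knockout-labelled cells and 7.35 in control cells (-0.69). H2BC6 was at 7.07 in knockout-labelled cells and 7.39 in control cells (-0.32). All encode core histone H2B, and the probe sets of H2BC5, H2BC6, H2BC9 and H2BC12L all bear the cross-matching suffix. They may therefore read some of the same transcripts and are not separate observations. H2BC12, with the octamer and TATAAA shown above, was the only compared H2B gene read by a plain _at probe set. H2BC21 stood at 4.95 on both arrays, just above the floor.

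H2A genes of the clusters went both ways, with a median of -0.21 over 5 genes. H2AC6 was at 6.25 in knockout-labelled cells and 6.82 in control cells (-0.57), and H2AC17 was at 4.95 in knockout-labelled cells and 5.45 in control cells (-0.49). H2AC14 was at 6.32 in knockout-labelled cells and 6.53 in control cells (-0.21). These 3 were lower, while 2 others were higher. H2AC25, which lies on chromosome 1 outside the main cluster, was at 6.70 in knockout-labelled cells and 6.37 in control cells (0.33). H2AC4 was at 4.96 in knockout-labelled cells and 4.71 in control cells (0.25). Both probe sets of H2AC25 were higher. The values of H2AC6 and H2AC14 come from cross-matching probe sets, and those given for H2AC17, H2AC25 and H2AC4 from plain _at ones.

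Linker histone genes of the chromosome 6 cluster differed in opposite directions. H1-2, encoding linker histone H1.2, was at 7.85 in knockout-labelled cells and 8.19 in control cells (-0.34). H1-4 was at 5.55 in knockout-labelled cells and 5.07 in control cells (0.48), or 1.88 times the spread of genes of similar expression. H1-3 was at 5.48 in knockout-labelled cells and 5.36 in control cells (0.12). H1-6, the testis linker histone, was at 4.92 on the knockout-labelled array and at 4.58, just under the floor, on the control array. Of these 4 genes 3 were higher, and their median was 0.23.

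H3 and H4 genes were near the floor for the most part. H3C6 was at 4.85 in knockout-labelled cells and 4.74 in control cells (0.11), but its dimmer probe set, under the floor on both, was at 2.37 in knockout-labelled cells and 3.51 in control cells (-1.14). H3C8 was at 5.53 in knockout-labelled cells and 5.56 in control cells (-0.03), with a cross-matching probe set. Only these 2 H3 genes of 7 were compared, so that little can be read about the class. H4C11 was at 6.30 in knockout-labelled cells and 6.67 in control cells (-0.38), with a cross-matching probe set. H4C9 was at 5.02 in knockout-labelled cells and 5.13 in control cells (-0.11), and H4C5 at 5.24 in knockout-labelled cells and 4.98 in control cells (0.26). H4 is the most conserved core histone, and most of its many genes encode the same protein.

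**Figure D2:**
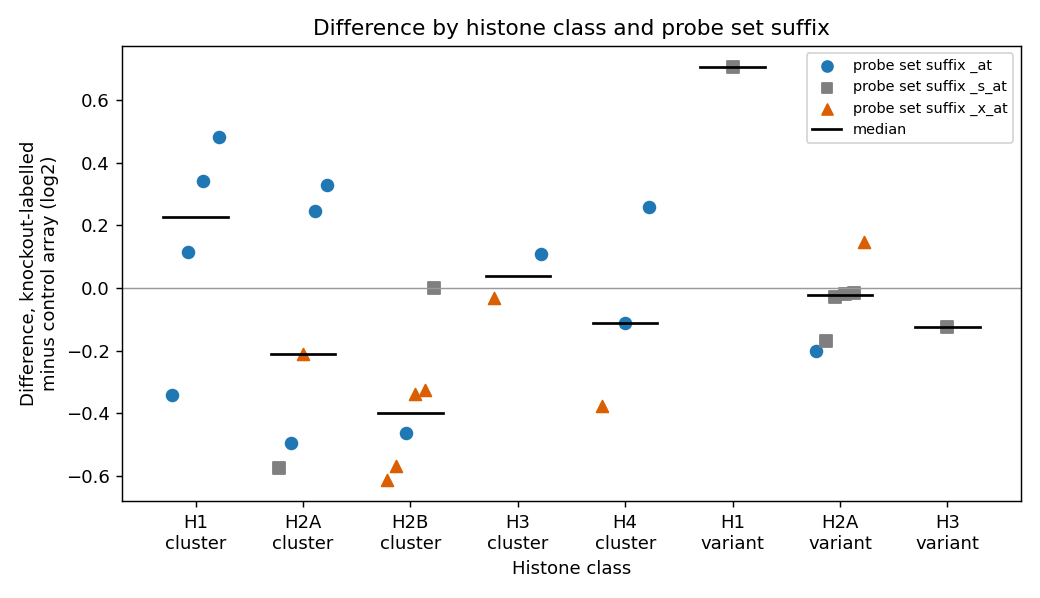
Difference of each compared histone gene, knockout-labelled minus control array (log2), by class, with the probe set suffix as symbol and the class median as a bar. The 7 cluster genes read by an _x_at probe set all lie below 0, while the 11 read by a plain _at probe set lie on both sides.

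The probe set suffix went with direction among the cluster genes. All 7 genes read by an _x_at probe set, whose probes can match other genes, were lower, with a median of -0.34. Of the 11 genes read by a plain _at probe set 4 were lower and 7 higher, with a median of 0.12. Over all single-symbol probe sets at or above the floor, the median difference was 0.07 for 2162 _x_at and 0 for 13907 plain _at probe sets. Brightness, in a split chosen after the values were seen, also went with direction. Of the 20 cluster genes, 5 had a mean of both arrays at or above 6.60, the 75th percentile of all values, and all 5 were lower. They were H1-2 and H2BC12, with a plain suffix, and H2BC5, H2BC6 and H2BC12L, with a cross-matching one. Of the 15 with a lower mean, the 9 with a plain suffix had a median of 0.25, with 2 lower and 7 higher. The 6 with a cross-matching suffix had a median of -0.29, with 5 lower and none higher.

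Apart from H1-10, the compared variant genes lay between -0.20 and 0.15. Of 11 variant genes 8 were compared, and 6 were lower and 2 higher, with a median of -0.02. H2AZ1, encoding H2A.Z.1, was at 12.99 in knockout-labelled cells and 13.02 in control cells (-0.03). H2AZ2, encoding H2A.Z.2, was at 10.78 in knockout-labelled cells and 10.80 in control cells (-0.02), and all its 4 probe sets lay between -0.07 and -0.02. These 2 genes, whose products mark promoters and enhancers, thus differed by far less than the spread of 0.255 at their brightness.

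MACROH2A1, whose macrodomain-bearing product is enriched on silent chromatin, was at 11.49 in knockout-labelled cells and 11.51 in control cells (-0.02). Its 7 probe sets did not go together: the third brightest was at 7.23 in knockout-labelled cells and 6.42 in control cells (0.81), and another was lower by 0.30. MACROH2A2 was at 7.10 in knockout-labelled cells and 7.31 in control cells (-0.20) in its single probe set.

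H2AX, the variant phosphorylated at DNA breaks, was at 9.79 in knockout-labelled cells and 9.96 in control cells (-0.17), with 2 of its 4 probe sets higher and 2 lower. H2AJ, a variant linked to senescent cells, was at 6.58 in knockout-labelled cells and 6.43 in control cells (0.15), with 3 of 4 probe sets higher. H3-3A, encoding the replacement histone H3.3, was at 5.63 in knockout-labelled cells and 5.76 in control cells (-0.12) in its only single-symbol probe set. The brightest probe set that it shares with H3-3B was at 12.83 in knockout-labelled cells and 12.82 in control cells. The level of H3-3A message can therefore not be read from the single-symbol probe set alone. The differences given for H2AX, H2AJ and H3-3A by the probe set that stands for each gene all lay within the spread of similar genes. The second brightest probe set of H2AJ was at 6.25 in knockout-labelled cells and 5.83 in control cells (0.42), and was not set beside a spread.

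H1-10 was the variant that stood out by size. The gene, which encodes the replication-independent linker histone H1.10, was at 9.39 in knockout-labelled cells and 8.68 in control cells. It was 1.63-fold higher (0.71), or 1.93 times the spread at its expression level (0.366). It has 1 probe set, which bears the _s_at suffix, so that no second probe set checks it.

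The cluster median lay 0.14 below the variant median, a difference with no test. When _x_at probe sets were left out the order was the other way, with the cluster median 0.14 above. No difference between the cluster and the variant genes therefore held across the choice of probe sets.

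**Figure D3:**
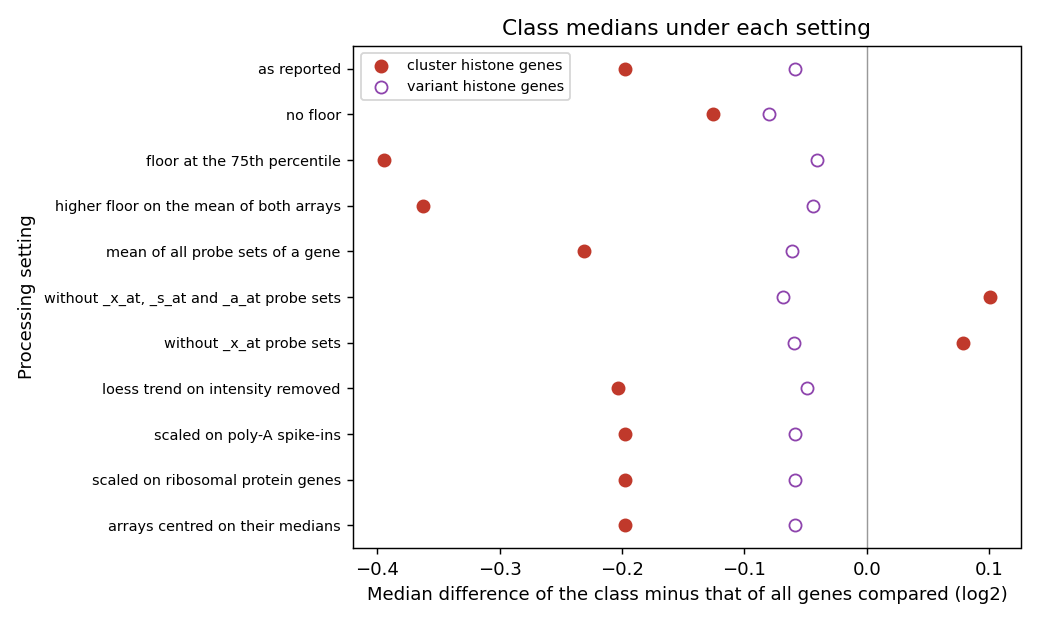
Median difference of the compared cluster genes (filled) and variant genes (open) minus the median of all genes (log2) under each processing setting. The cluster median lies below that of all genes as reported (-0.20) and above it without _x_at probe sets (0.08) and without all 3 marked suffixes (0.10), while the variant median stays between -0.08 and -0.04.

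Near-identical genes also share probe sets that carry several symbols, which the membership rule leaves out. Of 28 such probe sets 19 reached the floor, of which 12 were lower and 7 higher, with a median of -0.11 and none at 2-fold. One annotated to 14 H4 genes was at 12.63 in knockout-labelled cells and 12.71 in control cells (-0.08). One annotated to 10 H3 genes was at 5.10 in knockout-labelled cells and 5.86 in control cells (-0.77). Both H2B probe sets of this kind that reached the floor were lower, at 6.30 in knockout-labelled cells and 6.56 in control cells (-0.26) and at 5.81 in knockout-labelled cells and 6.10 in control cells (-0.29). These read 5 H2B genes including the member H2BC6, so they are not independent of it.

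H2AC18 and H2AC19, H2A genes that share all their probe sets in this annotation, were higher in the brightest, at 9.31 in knockout-labelled cells and 8.92 in control cells (0.40). Their second probe set was at 7.79 in knockout-labelled cells and 7.62 in control cells (0.17), and the third was under the floor, at 3.47 in knockout-labelled cells and 3.73 in control cells (-0.27). Another 6 H2A genes, the member H2AC17 among them, share a probe set at 4.14, under the floor, in knockout-labelled cells and at 5.01 in control cells (-0.86), the difference of largest size among the 28. The other probe set of these 6 genes was at 5.74 in knockout-labelled cells and 5.77 in control cells (-0.03). The H3-3A and H3-3B genes share 8 probe sets with differences from -0.22 to 0.38. The 4 that also carry the pseudogene H3P6 had a median of -0.18, and the 4 that carry MIR4738 were all higher, with a median of 0.21. The medians of these groups lay on opposite sides of 0, and whether the groups read H3-3A and H3-3B unequally was not tested. No single direction is given for H3.3 message as a whole.

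Dim members were counted and not compared. On both arrays 26 coding genes were under the floor, 23 of the clusters and 3 variants. The 23 cluster genes ranged from 2.06 to 4.22 on the knockout-labelled array and from 2.00 to 4.14 on the control array, with a median difference of -0.05. The outermost were H2BC4 (-0.86) and H2AC8 (0.48), and no fold is read from values under the floor. The 3 variants, H1-7, H1-8 and H3-4, lay between 4.05 and 4.37. By the higher of its 2 values, H3C6 was the dimmest gene compared, at 4.85 in knockout-labelled cells and 4.74 in control cells, and H1-7 the brightest left out, at 4.25 in knockout-labelled cells and 4.37 in control cells.

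Promoter letters were counted over the 51 of 54 coding members found in the RefSeq promoter table, in the 250 bases before each start and on both strands. The octamer ATTTGCAT was present in 10 of 13 H2B promoters and 6 of 8 H2A promoters of the clusters, and in none of the H1, H3, H4 or variant promoters. It was present in 1.66% of all 27305 promoters. TATAAA was present in 67.5% of cluster and 36.4% of variant promoters, against 11.1% of all, and CCAAT in 87.5% and 72.7%, against 33.0%. Among E2F-like letters, TTTCGCGC was found in 22.5% of cluster promoters, in 0.469% of all promoters and in no variant promoter, and TTTGGCGC in no member. Several H2A and H2B genes lie head to head, and 4 pairs of members had overlapping windows, so their matches are partly the same bases.

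The 8 compared cluster genes with the octamer had a median difference of -0.39, with 6 lower and 1 higher. The 11 without it had a median of 0.11, with 5 lower and 6 higher. All 8 were H2A or H2B genes, and only H2AC25 (0.33) and H2BC5 (-0.34) of the compared H2A and H2B genes with a promoter in the table lacked the letters. Of the genes with the octamer, H2AC4 (0.25), H2AC17 (-0.49) and H2BC12 (-0.46) were read by a plain _at probe set. The others were read by a cross-matching one. The octamer, the histone class and the probe set suffix therefore cannot be told apart here.

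Genes that act on histone mRNA differed in both directions. The list covers histone gene transcription and the 3-prime end processing, translation and decay of the mRNA. It is called histone mRNA synthesis for short. Of its 17 genes 16 were compared, with 7 lower, 9 higher and a median of 0.09, and none at 2-fold. CSTF2, a cleavage stimulation factor subunit, was at 7.72 in knockout-labelled cells and 8.41 in control cells (-0.69), and its dimmer probe set was also lower. LSM11, a subunit of the U7 particle that cuts histone mRNA, was at 7.05 in knockout-labelled cells and 6.64 in control cells (0.42), higher in all 4 probe sets. LSM10, its partner subunit, was at 8.19 in knockout-labelled cells and 8.56 in control cells (-0.37). NPAT, the coactivator of cluster genes in S phase, was at 7.40 in knockout-labelled cells and 7.77 in control cells (-0.37). SLBP, the stem-loop binding protein, was at 11.22 in knockout-labelled cells and 11.39 in control cells (-0.17).

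The chaperone list, which also holds the gene of the centromeric histone CENPA, had a median of -0.03 over 24 genes, with 13 lower and 11 higher, and 1 past 2-fold. Over the 23 chaperone genes without CENPA the median was also -0.03. HIRA, the chaperone that deposits H3.3, was at 6.21 in knockout-labelled cells and 7.39 in control cells (-1.18), but its other probe set was at 2.52 on both, under the floor. HJURP, the chaperone of the centromeric histone CENPA, was at 10.08 in knockout-labelled cells and 9.11 in control cells (0.97), and CENPA itself at 8.93 in knockout-labelled cells and 8.42 in control cells (0.51). Both are known to be transcribed mainly in G2. DNAJC9, an H3-H4 co-chaperone, was at 9.71 in knockout-labelled cells and 10.33 in control cells (-0.62), with 1 of its 3 probe sets higher. SPTY2D1, an H3-H4 chaperone, was at 8.62 in knockout-labelled cells and 8.04 in control cells (0.58).

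Genes for H2A.Z exchange had a median of -0.01 over 13 genes, with 7 lower and 6 higher and none at 2-fold. The differences of largest size were upward. ACTL6A, an actin-like subunit of several remodelling complexes, was at 10.15 in knockout-labelled cells and 9.57 in control cells (0.58). YEATS4 (0.40) and VPS72 (0.39), subunits of the H2A.Z-depositing complexes, and ANP32E (0.38), which removes H2A.Z, followed. The H2A.Z genes themselves stood at the values given above.

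S-phase genes, a list that holds G1/S genes as well as DNA replication genes, were lower in 17 of 21, with a median of -0.26. Cyclin E2 (CCNE2) was at 7.60 in knockout-labelled cells and 9.23 in control cells (-1.63) and the flap endonuclease FEN1 at 9.66 in knockout-labelled cells and 10.73 in control cells (-1.07), the 2 past 2-fold. CCNE1 (-0.74), whose probe sets differed in direction, and UHRF1 (-0.70), which guides maintenance DNA methylation, followed. The part of these values in those of the cluster histones was not tested.

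**Figure D4:**
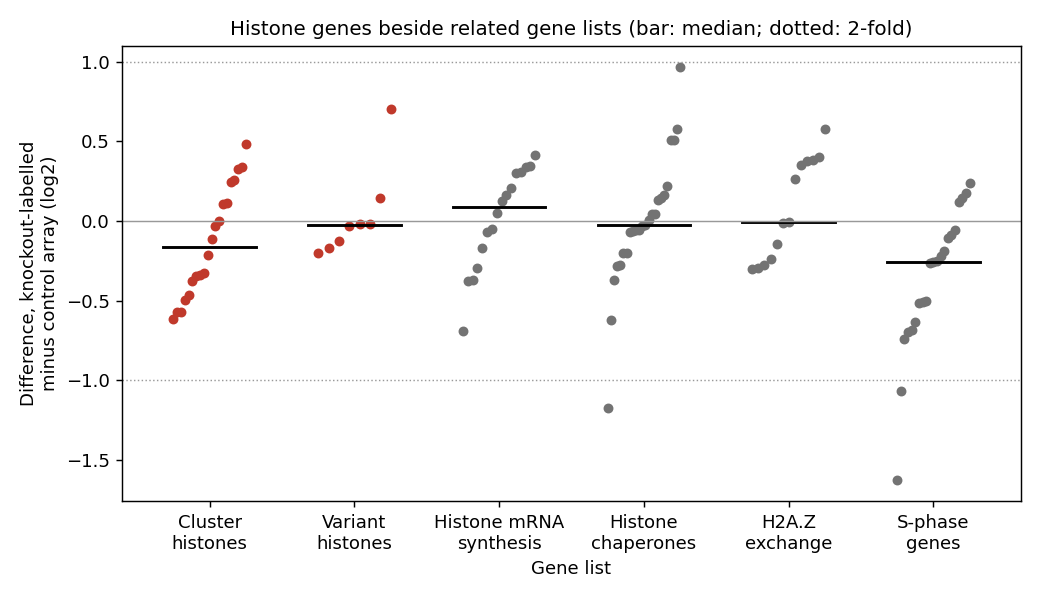
Differences, knockout-labelled minus control array (log2), of the compared cluster and variant histone genes (red) and of the 4 related lists (grey), with the median as a bar and 2-fold as dotted lines. No histone gene reaches a dotted line, and the S-phase list has the lowest median (-0.26).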

How the data were processed

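The authors deposited log2 expression values. Per the submitters' processing notes they come from RMA (version not stated), which corrects background, equalises the distributions of arrays and summarises each probe set. The set of arrays normalised jointly was not given in the sources used here. Of 54675 probe sets, 62 were controls and 41091 had 1 symbol in the platform annotation. Members, lists, floor and alternatives were chosen with earlier results of these data known. A gene took its brightest probe set and was compared when its higher value reached 4.59, which left 12841 of 19775 genes (64.9%). Every compared member was named, with up to 4 genes by size from each other list, and SLBP and CENPA were added after their values were seen. Spread was computed in 10 bins of mean expression. The number of arrays limits the precision. Python 3.11.15, pandas 2.3.3 and statsmodels 0.14.6 were used, and the steps were tested on simulated data. Alternatives changed the floor, probe sets, suffixes, intensity trend, scaling and threshold. Promoters came from RefSeq, GRCh38.p14.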

Additional observations from a re-analysis of the deposited data

How the results depend on the processing

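Results were called moved when a median changed by 0.1 or more or a count by more than 1.5 times. With the higher floor of 6.60 the cluster median was -0.38 over 9 genes, the cluster minus variant difference -0.35 and the H2A.Z exchange median 0.13, and ARID3B was not compared. Of these 9 genes 3 (H2AC6, H2BC9 and H4C11) reached that floor on the control array alone and 1 (H2AC25) on the knockout-labelled array alone. A gene that reaches the floor on 1 array alone is higher on that array. The part of these genes in the median was not tested. With the same floor on the mean of both arrays, added after seeing the data, the cluster median was -0.34 over 5 genes, the difference from the variants -0.32 and the H2A.Z exchange median 0.13. Without _x_at probe sets the cluster median was 0.11 over 13 genes and the difference from the variants 0.14. Without _x_at, _s_at and _a_at probe sets the cluster median was 0.12, the difference 0.17, the H2A.Z exchange median 0.34 and the S-phase median -0.50, each over fewer genes. Scaled on the poly-A spike-ins, medians were 1.02 for cluster and 1.16 for variant histones, 1.28 for histone mRNA synthesis, 1.16 for chaperones, 1.18 for H2A.Z exchange and 0.93 for S-phase genes, ARID3B differed by 2.15, and 17 histone genes were 2-fold higher; all genes had a median of 1.22. At a 1.5-fold threshold 1 histone gene was higher and 1 lower. The causes of these changes were not tested. With no floor, the mean of probe sets, the intensity trend removed, ribosomal protein scaling or median centring, no median moved by 0.1, although those near 0 changed sign in places (H2A.Z exchange at 0.02 with averaged probe sets, histone mRNA synthesis at -0.01 on ribosomal protein scaling). Of single members, 3 of 27 (H1-6, H2AX and H2BC5) moved with averaged probe sets, and 2 (H2AX and MACROH2A1) changed sign. Without _x_at, _s_at and _a_at probe sets 1 of 16 moved, MACROH2A1, which changed sign to 0.81. Scaled on the spike-ins all 29 moved and 18 changed sign. No paired analysis was possible because each group has 1 array. Values near the floor are compressed by RMA, so that dim H3 and H4 genes are the least informative.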

Other observations

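The 4 non-coding members were not part of the class medians. H1-10-AS1, the antisense RNA next to H1-10, was at 4.95 in knockout-labelled cells and 4.75 in control cells (0.21), in the same direction as H1-10. The pseudogenes H4C10P (4.04 in knockout-labelled and 3.42 in control cells), H2AC5P (3.63 in knockout-labelled and 3.88 in control cells) and H1-9P (3.80 in knockout-labelled and 3.73 in control cells) were under the floor on both arrays.

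Some values were identical on both arrays to the last deposited digit. This held for 5 of the 82 member probe sets, H2BC21 among them, and for 253 of the 12841 genes compared (1.97%).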
